A study of Mus musculus with 8 samples.

Results

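The Malat1 and Neat1 locus of mouse chromosome 19 was described here through its peaks of H3K27ac, the acetylation of histone H3 at lysine 27 that marks active promoters and enhancers. The members are the peak regions, found in 1 or more of 8 peak lists, that overlap chr19:5770000-5860000 in build mm9. Peaks that shared at least 1 bp were merged across lists, which gave 11 regions in the window out of 33920 in the genome. The members were thus chosen by the presence of a peak and by position, and not by a difference between groups. The cells were 266-6, a mouse pancreatic acinar line, given 25 nM of siRNA for 48 h, then starved of serum overnight and treated for 8 h. The control group received a non-targeting siRNA and 0.1% BSA as vehicle, and the EGF group the same siRNA and EGF at 40 ng/ml. The knockdown group received siRNA against Arid1a and vehicle, and the knockdown group with EGF received both agents. Each group held 2 libraries. Knockdown names the siRNA given. Arid1a itself was not measured in the files used, and no label tells which species the siRNAs were designed for. All groups share 1 line. Nothing shows duplicates to be separate cultures, so a p-value covers no more than the spread among these libraries, possibly a technical one. Markers of acinar and other cells were not analysed here.

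Malat1 and Neat1 are neighbouring genes for long nuclear RNAs that code for no protein. Malat1 RNA gathers in nuclear speckles, bodies rich in splicing factors, and its 3′ end is cut off to release a small tRNA-like RNA. Neat1 is the scaffold of paraspeckles, bodies that hold RNA-binding proteins such as Nono and Sfpq, and it is made as a short and a long form from the same start. Both are read from the reverse strand, so each gene starts at its higher coordinate, and the Neat1 3′ end faces the Malat1 start. Arid1a is the DNA-binding subunit of a SWI/SNF remodelling complex, which moves nucleosomes at enhancers and promoters, and EGF acts through a receptor tyrosine kinase that feeds the ERK pathway.

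Malat1 lies at chr19:5795690-5802672 and Neat1 at about chr19:5824700-5845500, with 22027 bp between them. The bases around the Malat1 start are shown because every library had a peak across them. The sequence runs from 250 bases before to 50 bases after the start that RefSeq gives, chr19:5802623-5802922 of GRCm38.p6, reverse strand. Capitals mark each match to TGACG or its reverse complement CGTCA, the core of the cAMP response element:
Malat1 promoter: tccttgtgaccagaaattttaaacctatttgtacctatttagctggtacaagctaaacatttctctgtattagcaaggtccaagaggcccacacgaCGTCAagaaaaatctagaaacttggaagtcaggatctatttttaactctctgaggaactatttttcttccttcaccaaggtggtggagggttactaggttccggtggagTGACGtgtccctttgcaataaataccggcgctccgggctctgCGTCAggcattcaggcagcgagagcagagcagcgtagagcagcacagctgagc

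The 3 matches begin 154, 45 and 3 bases before the start. Of 32851 promoters of the same length, 20.8% held at least 1 such match on either strand and 1.03% held 3 or more. The ETS core CCGGAA, searched on both strands, matched once as TTCCGG, 56 bases before the start, and was found in 14.9% of promoters. No match was found to the AP-1 motif TGANTCA (7.81% of promoters), the full element TGACGTCA, which would overlap the core (1.79%), the TATA box TATAAA (13.6%), the CCAAT box (37.4%), the Sp1 core GGGCGG (35.7%) or the E-box CACGTG (7.15%), each on both strands. Its GC content was 47.0%, against a median of 52.7% over all promoters. Neat1 had no entry in the promoter table.

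The 8 lists held 22030 to 28281 peaks and covered 33.9 to 48.7 Mb. EGF-treated lists covered 33.9 to 36.8 Mb and vehicle lists 34.3 to 48.7 Mb, where the first control library had 34.3 Mb and the second 47.2 Mb. Read depth is unknown. A longer list can hold more and wider peaks, so these totals are set beside the results below. Apart from lists cut to equal length, their part in the results was not tested.

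Of the 11 regions, 5 had a peak in all 8 libraries, against 49.0% of all regions. From the low coordinate up, 4 of these were the Malat1 start region (5799709 to 5807604), a proximal spacer region between the genes (5809501 to 5815406), the Neat1 3′ end region (5821590 to 5825468) and the Neat1 start region (5842941 to 5850768). A wide region inside the Neat1 body (5838719 to 5842220) had a peak in 7 libraries, all but the first EGF library. The other 5 had a peak in Arid1a siRNA libraries alone. They were a downstream region (5786682 to 5787934), a region just past the Malat1 3′ end (5793410 to 5795096), a Malat1 body region (5797156 to 5798933), a mid spacer region (5817935 to 5819701) and a small Neat1 body region (5837230 to 5837913). The last member ended 9232 bp inside the window's upper edge. The nearest regions outside lay 25904 bp below, with a peak in 8 libraries, and 11056 bp above, with a peak in 5.

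**Figure D1:**
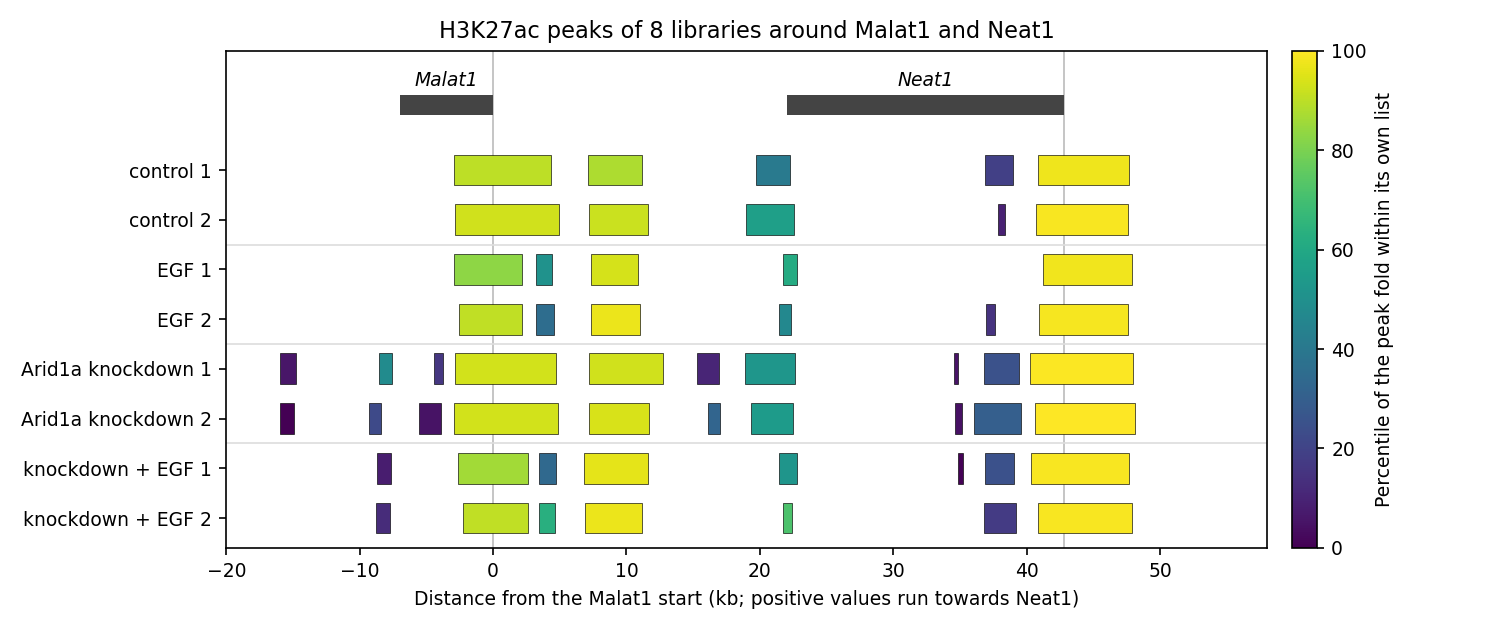
Peaks of each library (rows, 2 per group) against distance from the Malat1 start in kb, coloured by the percentile of the peak's fold within its own list, with the Malat1 and Neat1 intervals as dark bars and their starts as grey lines. All 8 libraries have peaks at both starts, while the narrow dark peaks around and inside the genes lie mostly in the 2 knockdown libraries without EGF.

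The Neat1 start held the strongest peak of the locus in all 8 libraries. The merged region held 2560 bp of the gene and reached 5268 bp upstream of its start. Its fold over the caller's background, the authors' value for each peak, was 8.84 and 12.3 in the control libraries, 8.70 and 10.1 with EGF, 14.8 and 14.9 with knockdown, and 11.7 and 11.4 with knockdown and EGF. Within its own list the peak ranked between place 107, in the second knockdown library, and place 578, in the first control library. These places correspond to the top 0.388% and 2.61% of peaks by fold. Folds are not scaled between libraries and the highest fold of a list ranged from 14.9 to 21.3, so they place a peak within its list and do not measure change between groups.

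At the Malat1 start the fold was 7.09 and 8.96 in control libraries, 6.34 and 7.69 with EGF, 9.89 and 9.76 with knockdown, and 7.77 and 8.05 with knockdown and EGF. These values fell between percentiles 83.0 and 93.1 of their lists. The proximal spacer region, which lies outside both genes, had folds between 6.84 and 10.1, at percentiles 87.9 to 97.0. It stood above the Malat1 start by fold in all 4 EGF-treated libraries and in the second knockdown library, and below it in the first knockdown library and both control libraries. The Neat1 3′ end region was the weakest of these 4 in every library, with folds of 4.30 to 6.03, near the middle of its lists (percentiles 41.0 to 71.8).

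**Figure D2:**
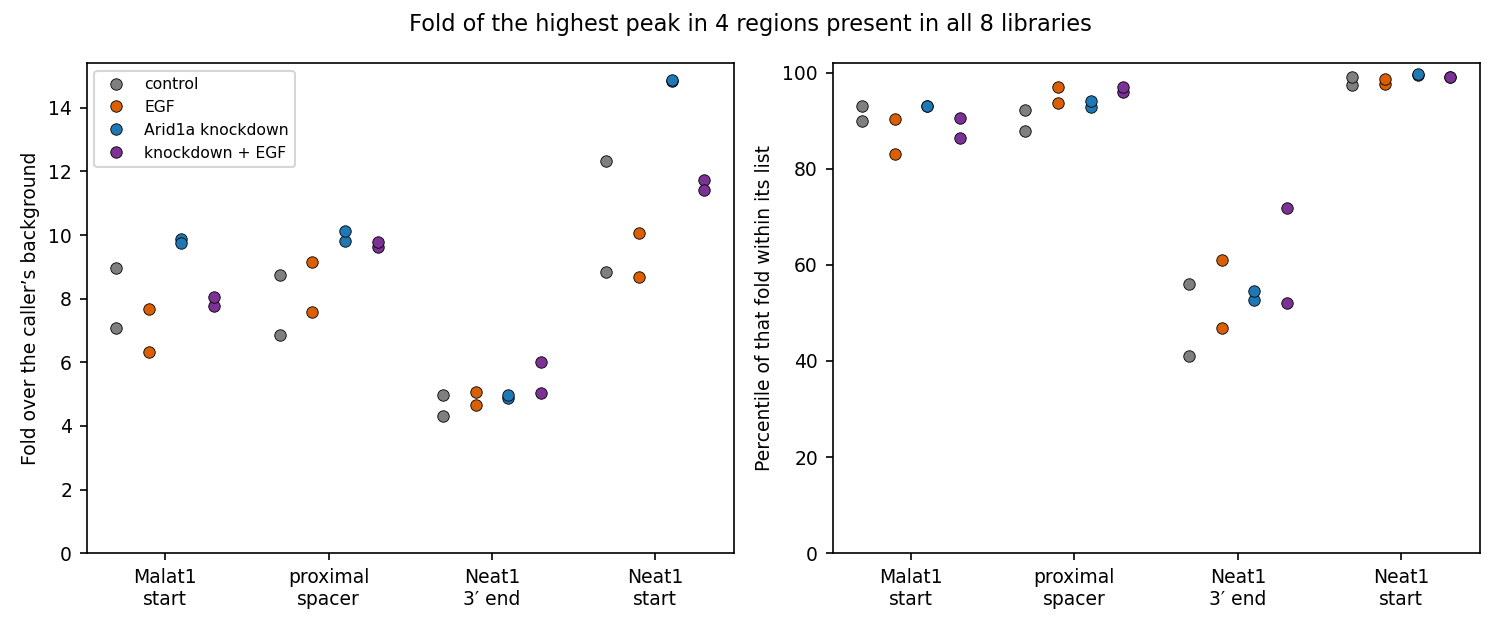
Fold of the highest peak over the caller's background (left) and its percentile within its own list (right) for 4 regions with a peak in all 8 libraries, 1 point per library, coloured by group. The Neat1 start lies above percentile 97 in all libraries and the Neat1 3′ end between 41.0 and 71.8.

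By width the 2 starts were also at the upper end of the genome. The merged Malat1 start region, of 7896 bp, ranked 510 of 33920 regions and the Neat1 start region, of 7828 bp, ranked 527, so that 1.504% and 1.554% of regions were as wide or wider. The proximal spacer region spanned 5906 bp (rank 1085) and the Neat1 3′ end region 3879 bp (rank 2989). The small peaks inside the genes were unlike these. The small Neat1 body region spanned 684 bp, and 79.3% of all regions were as wide or wider.

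The first question was what EGF did at the locus. The region at the Neat1 3′ end was narrower in EGF-treated cells with either siRNA, and the peak at the Malat1 start was broken in the same place in all 4 EGF-treated libraries. The Neat1 start, the strongest peak, differed little in width between treatments.

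The Neat1 3′ end region was covered over 2616 and 3592 bp in control libraries and over 1042 and 910 bp with EGF. In Arid1a siRNA libraries it was covered over 3687 and 3176 bp without EGF and over 1352 and 726 bp with it. The groups did not overlap, since the widest EGF-treated library had 1352 bp and the narrowest vehicle library 2616 bp. Of the 16607 regions with a peak in all 8 libraries, 15.8% were parted in this way and 1.94% the other way. The 2616 bp were in the first control library, whose list was as short as those of EGF-treated cells. Apart from the cut to equal length given below, the part of list length was not tested. By limma on log2(covered bp + 200), a fit over 28146 regions with Benjamini-Hochberg adjustment, the mean EGF effect was -1.54 ± 0.19 (SE, adjusted p = 0.00892). It remained between -1.72 and -1.35 when any 1 library was left out, with adjusted p from 0.0113 to 0.0381 by limma. With lists of equal length it was -1.54 (limma adjusted p = 0.00812). With only peaks above the median score of all lists pooled it was -1.20 (limma adjusted p = 0.495). In cells with control siRNA alone the effect was -1.48 ± 0.27 (limma adjusted p = 0.0449), and in knockdown cells -1.60 ± 0.27 (limma adjusted p = 0.0288). Within control siRNA cells the call was lost without either control library, either EGF library or either knockdown library without EGF (limma adjusted p 0.0547 to 0.174). Within knockdown cells it was lost without either EGF library, either knockdown library or either knockdown library with EGF (0.0618 to 0.152).

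The loss of width at the Neat1 3′ end was on the side that faces Malat1. In vehicle libraries the peak began between 18918 and 19682 bp upstream of the Malat1 start, and in EGF-treated libraries between 21445 and 21747 bp, with no overlap. Its other edge, inside Neat1, lay at 22297 to 22604 bp and 22354 to 22796 bp, ranges that overlapped. The fold of the peak was 4.30 to 4.96 in vehicle and 4.65 to 6.03 in EGF-treated libraries. Thus the end of the gene was under a peak in all 8 lists, and the stretch from 19682 to 21445 bp upstream of the Malat1 start was under a peak in vehicle lists alone.

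At the Malat1 start each vehicle library had 1 unbroken peak, of 7274 and 7770 bp in control cells and 7577 and 7854 bp with knockdown. Each EGF-treated library had 2 peaks there. The larger covered the gene start and was 5135 and 4704 bp wide with EGF, and 5253 and 4838 bp with knockdown and EGF. The smaller, further upstream, was 1152 and 1307 bp, and 1265 and 1219 bp wide. The gap between them was 1078 and 1116 bp in EGF libraries and 802 and 830 bp in knockdown libraries with EGF, and all 4 gaps shared 630 bp, from 2620 to 3249 bp upstream of the start. Over all 8 lists the closest neighbouring peaks were 801 bp apart, so the gaps with knockdown and EGF were near the smallest that the lists hold. In the genome, 0.169% of 16607 regions with a peak in all 8 libraries had several peaks in every EGF-treated library and 1 in every vehicle library, and 0.0241% had the reverse. Among the 1648 such regions of at least 5000 bp, these shares were 1.09% and 0.182%. Peak files do not say how deep the signal fell in the gap, which was not analysed here.

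**Figure D3:**
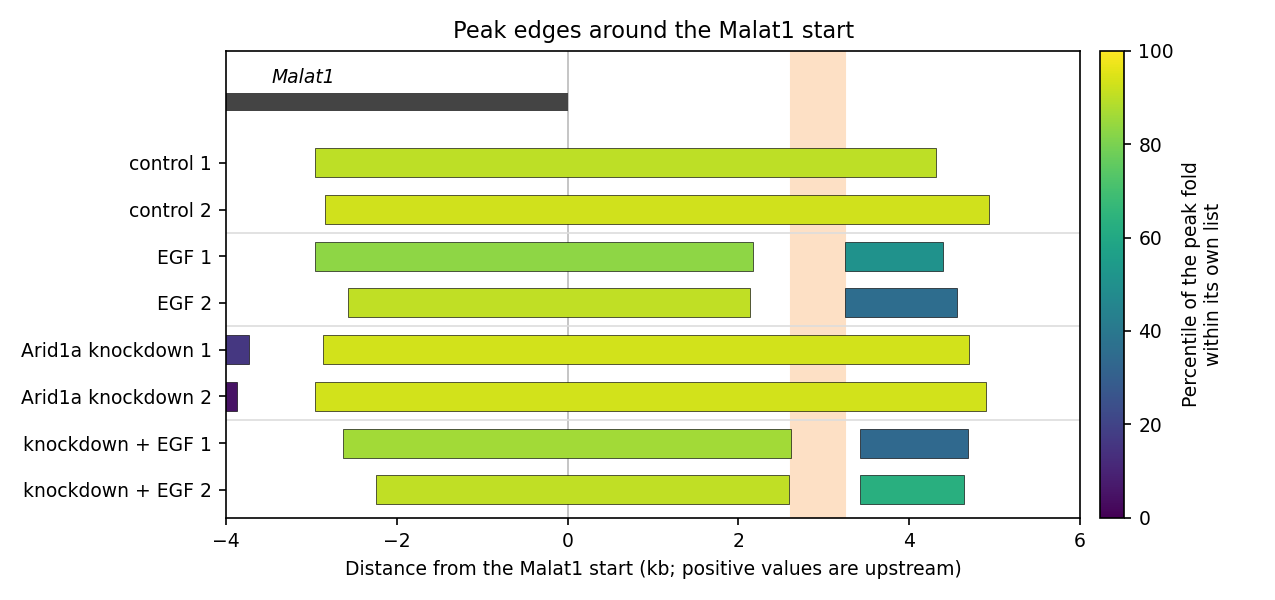
Peaks from 4 kb inside Malat1 to 6 kb upstream of its start, per library, coloured by fold percentile within the list. The shaded 630 bp are without a peak in all 4 EGF-treated libraries and lie under 1 unbroken peak in all 4 vehicle libraries.

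Summed over its peaks, the Malat1 start region was covered over 7522 ± 351 bp in control cells and 6149 ± 195 bp with EGF, and over 7715.5 ± 196 bp with knockdown and 6287.5 ± 326 bp with knockdown and EGF (SD, n = 2 each). All 4 EGF-treated libraries (6011 to 6518 bp) were below all 4 vehicle libraries (7274 to 7854 bp), as in 15.8% of regions with a peak in all 8 libraries. The mean EGF effect by limma was -0.28 ± 0.05 (SE, adjusted p = 0.0254), against a median of -0.25 over all regions tested, so it was close to the general shift. After quantile normalization, which removes such a shift and sets the median over all regions at 0.04, it was -0.09 (limma adjusted p = 0.383). With only peaks above the pooled median score it was -0.45 (limma adjusted p = 0.0585). The call was also lost without either EGF library, either knockdown library or either knockdown library with EGF (limma adjusted p 0.0562 to 0.0852). Within control siRNA cells the difference was -0.28 ± 0.08 (limma adjusted p = 0.113) and within knockdown cells -0.29 ± 0.08 (limma adjusted p = 0.0823). The difference between these effects was -0.01 ± 0.11 (SE).

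Every EGF-treated library was covered over fewer bp than every vehicle library in 2 of the 11 regions, those at the Malat1 start and the Neat1 3′ end, against 11.6% of all regions, and over more bp in 0, against 1.93%. Among the 5 members with a peak in all 8 libraries it was 2, against 15.8% of such regions, and 0 the other way, against 1.94%. The proximal spacer region had 4034 and 4414 bp in control and 3549 and 3679 bp in EGF libraries, and 5544 and 4519 bp against 4766 and 4258 bp in knockdown cells (mean limma effect -0.18 ± 0.08, adjusted p = 0.187). The Neat1 start region had 6791 and 6935 bp in control and 6682 and 6721 bp in EGF libraries, and 7691 and 7467 bp against 7277 and 7081 bp in knockdown cells, a mean effect of -0.05 ± 0.04 (limma adjusted p = 0.419). The wide Neat1 body region had 2111 and 531 bp in control, and 0 and 677 bp with EGF, where the 2 control libraries differed more than the groups did.

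In the stretch between the genes, vehicle libraries had 10699 to 15029 bp under peaks and EGF-treated libraries 7153 to 9233 bp, and these ranges did not overlap. No share over the genome was taken for such stretches. The knockdown libraries without EGF include 1670 and 906 bp of the mid spacer region, a member through these libraries alone. The mean with EGF was 0.634 times that with vehicle between the genes, 0.744 times inside Malat1, 0.783 times inside Neat1 and 0.796 times over the genome. In control siRNA cells, which had no peak in the mid spacer region, it was 0.643 times between the genes and 0.851 times over the genome. Inside Malat1 the ratio was 0.955 in control siRNA cells and 0.596 in knockdown cells. The latter includes the Malat1 body region, which had a peak in knockdown libraries without EGF alone. Between the genes the second control library had 12421 bp and the first 10699 bp, above all EGF-treated libraries. The first control list covered 34.3 Mb in all, within the range of the EGF-treated lists, and the part of list length was not tested.

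**Figure D4:**
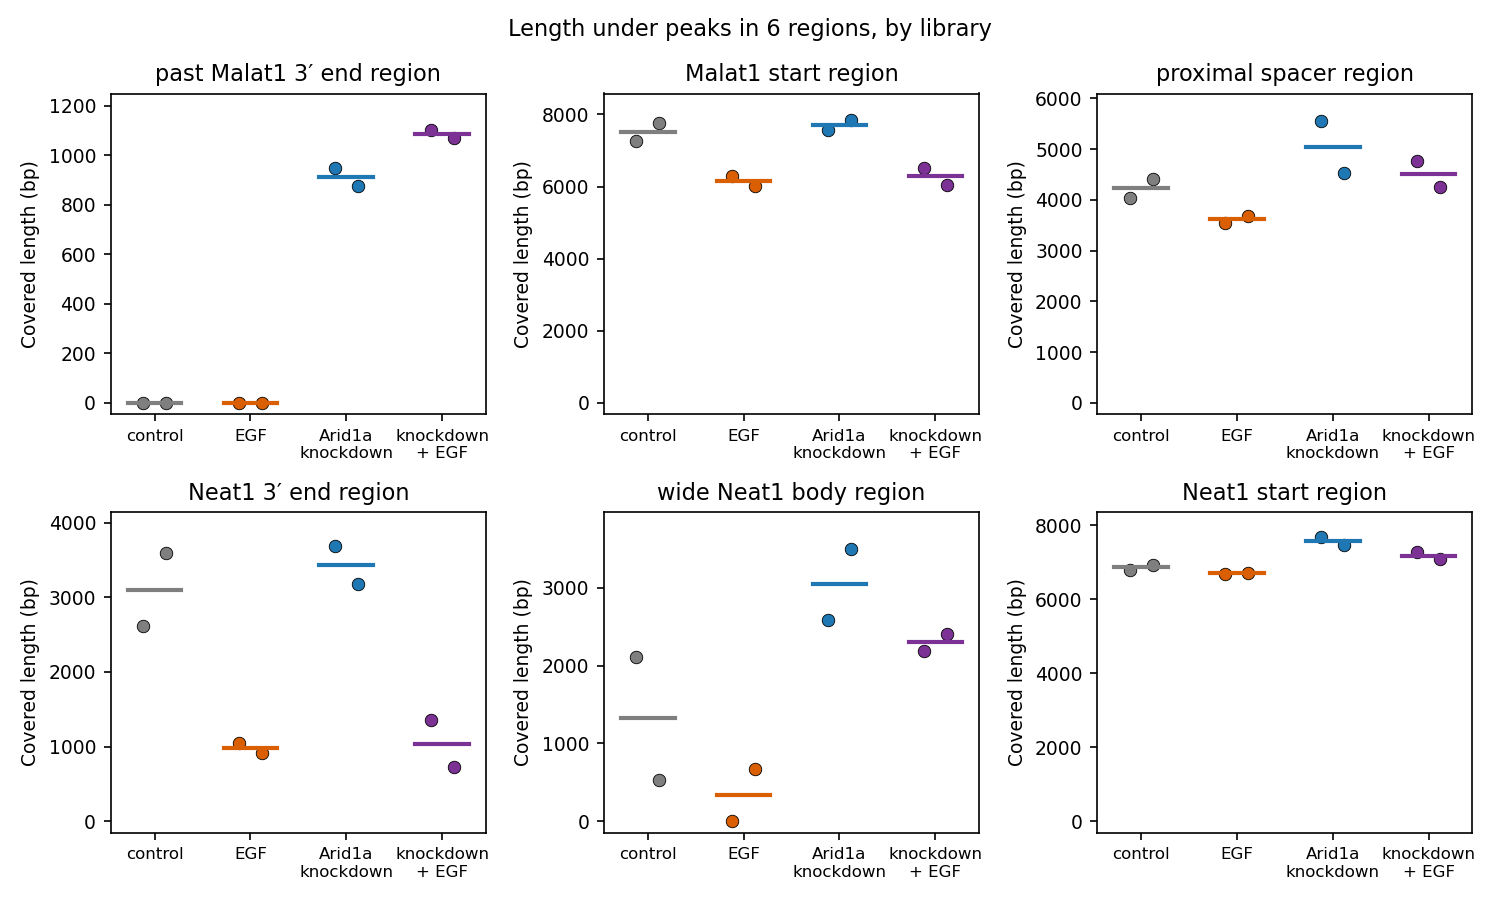
Length under peaks in bp in 6 of the regions, 1 point per library and a bar at each group's mean of 2 libraries. At the Malat1 start and the Neat1 3′ end all 4 EGF-treated libraries lie below all 4 vehicle libraries, and past the Malat1 3′ end the 4 Arid1a siRNA libraries alone are above 0.

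The next question was what differed with siRNA against Arid1a. A small peak just past the Malat1 3′ end was found in all 4 Arid1a siRNA libraries and in none of the 4 with control siRNA. Inside Neat1 more of the gene lay under peaks in all 4 Arid1a siRNA libraries than in any other. That order rests on weak peaks of the gene body.

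The region past the Malat1 3′ end lay between the gene's end, 594 bp away, and the downstream region. It was covered over 946 and 876 bp with knockdown and over 1101 and 1068 bp with knockdown and EGF, and had no peak in any control or EGF library. It was the 1 member with a peak in all 4 Arid1a siRNA libraries and no other, a pattern held by 0.259% of all regions, and 0.13% had the reverse. The region is a member through these libraries alone, so its pattern is a description. The peaks were weak. Their folds were 4.62 and 3.59 with knockdown and 3.47 and 3.44 with knockdown and EGF, between percentiles 8.08 and 47.8 of their lists, and their −log10 q ranged from 1.46 to 3.43. The peak ran from 5794151 to 5795096 in the first knockdown library and from 5793410 to 5794285 in the second, so these shared 135 bp at their ends. A region without a peak is not a region without acetylation, since a signal just below the caller's limit is not listed. The second control list, with 28281 peaks the longest by number, had no peak there. Apart from the cut to equal length given below, the part of list length was not tested.

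The region entered the limma fit through Arid1a siRNA libraries alone, since the fit took regions with a peak in 2 or more libraries. It therefore had to differ, and its estimates are a description. On the log2 scale the mean knockdown effect was 2.58 ± 0.22 (SE), with 2.47 ± 0.31 without EGF and 2.68 ± 0.31 with EGF. These sizes depend on the 200 bp added, because the control siRNA libraries are all at 0. With lists of equal length the first knockdown library kept this peak and the second did not, and the mean was 1.97.

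The wide Neat1 body region was covered over 2590 and 3502 bp with knockdown and 2188 and 2404 bp with knockdown and EGF, against 2111 and 531 bp in control and 0 and 677 bp in EGF libraries. All 4 Arid1a siRNA libraries were above the 4 others, but the lowest of them, with 2188 bp, was close to the first control library, with 2111 bp. The mean effect by limma was 1.94 ± 0.56 (SE, adjusted p = 0.159) and did not pass. Folds were 3.31 to 3.94 where there was a peak, at percentiles 9.33 to 29.8 of the lists. The Neat1 start region was wider as well in all 4 Arid1a siRNA libraries (7081 to 7691 bp) than in the 4 others (6682 to 6935 bp). Its mean limma effect was 0.12 ± 0.04 (adjusted p = 0.248), near the median of 0.11 over all regions, and turned to -0.02 after quantile normalization. Libraries were parted in this way, all Arid1a siRNA libraries above all others, in 3 of the 11 regions against 3.3% of all regions, and the other way in 0 against 0.825%. They are those past the Malat1 3′ end, in the wide Neat1 body and at the Neat1 start, and the latter pair lie 720 bp apart. The region past the Malat1 3′ end is a member through Arid1a siRNA libraries alone, so nothing is read from its place in this count. Among regions with a peak in all 8 libraries, 4.95% were parted as the Neat1 start was, and 0.867% the other way.

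Over the whole of Neat1, 4358 and 3204 bp lay under peaks in control libraries, 2358 and 2930 bp with EGF, 6040 and 6685 bp with knockdown and 5764 and 4824 bp with knockdown and EGF. The lowest Arid1a siRNA library had 4824 bp and the highest other library 4358 bp. The mean with Arid1a siRNA was 1.81 times that with control siRNA inside Neat1, 1.16 times inside Malat1 and 1.10 times over the genome. With EGF in both arms, where the genome ratio was 1.02, the Neat1 ratio was 2.00 and the Malat1 ratio 0.882. Both Neat1 ratios include the weak body regions. The small one was in Arid1a siRNA lists alone, and the wide one had folds at percentiles 9.33 to 29.8. Neither remained in any list with only peaks above the pooled median score. Inside Malat1, coverage was 2955 and 2838 bp in control, 2964 and 2569 bp with EGF, 3590 and 4605 bp with knockdown and 2634 and 2247 bp with knockdown and EGF. The 2 knockdown libraries without EGF stood above the other 6. Their sums include 718 and 1648 bp of the Malat1 body region, a member through these libraries alone, so nothing is read from this order.

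The Malat1 start, the proximal spacer and the Neat1 3′ end were not called with knockdown. Mean limma effects were 0.03 ± 0.05 (adjusted p = 0.794), 0.27 ± 0.08 (adjusted p = 0.173) and 0.09 ± 0.19 (adjusted p = 0.857). In the proximal spacer the Arid1a siRNA libraries had 4258 to 5544 bp and the others 3549 to 4414 bp, which overlapped.

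A further 4 small regions had a peak in both knockdown libraries without EGF and in no control siRNA library. With the region past the Malat1 3′ end, 5 of the 11 members were thus present in both knockdown libraries and neither control library, against 3.04% of all regions, and 0 had the reverse, against 0.778%. All 5 are members through Arid1a siRNA libraries alone, so nothing is read from this count or from later ones that hold them. The downstream region was covered over 1253 and 988 bp, the Malat1 body region over 718 and 1648 bp, the mid spacer region over 1670 and 906 bp and the small Neat1 body region over 313 and 530 bp in the knockdown libraries. The first 3 of these had no peak in knockdown cells with EGF, and the small Neat1 body region had 345 and 0 bp there. A peak in both knockdown libraries without EGF and in no other library was seen in 1.58% of all regions, and one in both of these libraries and neither knockdown library with EGF in 8.4%, with the reverse in 0.996%. Of the 11 members 1, the region past the Malat1 3′ end, had a peak in both knockdown libraries with EGF and neither EGF library, against 2.02% of all regions, and 0 had the reverse, against 2.34%. No member was gained or lost between control and EGF libraries in this way (2.0% and 4.26% of all regions), nor between all 4 EGF-treated and all 4 vehicle libraries (0.404% and 1.61%). The 4 small regions had folds of 2.77 to 3.90, at percentiles 0.07 to 32.4 of the lists, and a −log10 q of at most 2.40. With each list cut to the 22030 peaks of the shortest, 0 of the 5 were in both knockdown libraries and neither control library, and the same held for peaks above the median score of 40 pooled over all lists. The second control list, of 47.2 Mb and thus about as long as the knockdown lists, had no peak in any of the 5. Apart from this cut, the part of list length was not tested.

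All 11 members had a peak in at least 2 libraries and entered the limma fit. The 5 regions with a peak in Arid1a siRNA libraries alone entered it through those libraries, so they had to differ, and their estimates and calls are given as a description. Without EGF the downstream, Malat1 body and mid spacer regions were 2.72, 2.70 and 2.85 higher with knockdown than in control cells on the log2 scale. Within knockdown cells they were lower with EGF than with vehicle by the same amounts. For the small Neat1 body region the estimate was 1.61 ± 0.52 (SE). Limma called 4 members higher with knockdown in the absence of EGF, these 3 and the region past the Malat1 3′ end, against 1.09% of regions tested, and 0 lower, against 0.274%. With EGF it called 1 higher, against 0.234%, and 0 lower, against 0.426%. For the mean knockdown effect it called 1 higher, against 0.213%, and 0 lower, against 0.139%. All members called higher with knockdown are among those 5, so nothing is read from these counts. For EGF it called 1 member lower in control siRNA cells, against 2.9%, 4 in knockdown cells, against 6.0%, and 5 for the mean effect, against 11.2%. The last 2 counts include the downstream, Malat1 body and mid spacer regions, which leaves 1 and 2. No member was called higher with EGF, against 1.05%, 0.622% and 1.79% of regions tested. Over the 5 members with a peak in all 8 libraries the median limma estimate was -0.18 for the mean EGF effect and 0.12 for the mean knockdown effect, against -0.16 and 0.10 over all 16607 such regions. Over all 11 members, where the regions that had to differ weigh in, these medians were -0.45 and 1.17, against -0.25 and 0.11 over all regions tested.

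**Figure D5:**
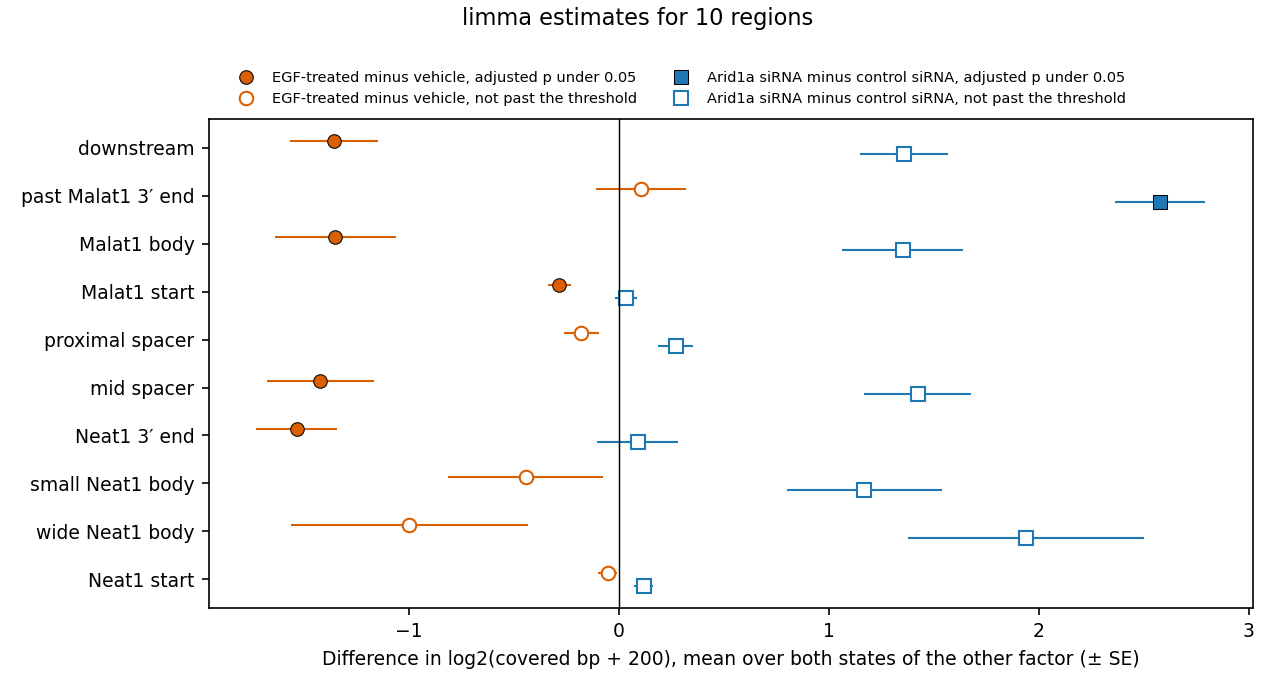
Limma estimates (± SE) of the mean EGF effect (circles) and the mean knockdown effect (squares) on log2(covered bp + 200) for 10 regions in genome order, filled where the adjusted p is under 0.05. The Neat1 3′ end is lowest with EGF at -1.54 and the region past the Malat1 3′ end highest with knockdown at 2.58, a region that entered the fit through Arid1a siRNA libraries alone, while both gene starts lie between -0.28 and 0.12.

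Whether EGF acted differently in knockdown and control siRNA cells was tested by the difference of the 2 effects. Limma called 0 of 28146 regions for it (0.0% in either direction), with 2525 at an unadjusted p under 0.05, and thus 0 of the members, of which 3 had an unadjusted p under 0.05. These 3 were the downstream, Malat1 body and mid spacer regions, with differences of -2.72, -2.70 and -2.85 (limma adjusted p 0.153 to 0.190), and they entered the fit through 1 group, so nothing is read from them. For the Neat1 3′ end the difference was -0.12 ± 0.38 (SE, limma adjusted p = 0.985) and for the Neat1 start -0.04 ± 0.09 (limma adjusted p = 0.961), and an SE of this size does not show the effects to be alike.

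By width over the 8 libraries, the regions most like the Malat1 start region among 1645 others of at least 5000 bp with a peak in all libraries lay on chromosome 15 from 88684467 to 88700335, on chromosome 16 from 34076603 to 34084037 and on chromosome 5 from 29847156 to 29859295 (Pearson r of log2(covered bp + 200) 0.993, 0.992 and 0.977). Those most like the Neat1 start region lay on chromosome 9 from 108468020 to 108473037 and on chromosome 4 from 148499117 to 148508681 and from 151635480 to 151651098 (r 0.990, 0.985 and 0.980). These values are the highest of many over 8 points that share the length of their lists, and are a description.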

How the data were processed

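The authors deposited 1 peak list of H3K27ac per library, with positions in mm9 per the submitters' processing notes, and so called peaks per sample. The submitters' processing notes name the peak caller MACS2 2.1.1.20160309.0, the aligner Bowtie2 2.3.4.2, deepTools 3.0.2 and SAMtools, but not what each did here. No source used here states an input library or the caller's settings. For each peak the authors deposited a score (10 times −log10 q, as a whole number), a fold enrichment (a ratio to the background that the caller estimated) and −log10 p and −log10 q values. Folds and scores are their values and were used within a list only, except 1 setting with a pooled score limit. Overlapping peaks were merged, and covered bp per region and library were tested with limma 3.58.1 in R 4.3.3 (a mean per group, empirical Bayes with a trend) on log2(covered bp + 200), over the 28146 regions that 2 or more lists shared, with Benjamini-Hochberg adjustment and a threshold of 0.05. Spread is shared by the 8 libraries. Other steps used Python 3.11.15 and pandas 2.3.3.

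Interval steps and the limma fit were tested on simulated data. The fit missed most planted changes in comparisons of 2 against 2 libraries, so a region not called may still differ. No 2 lists shared more than 0.09% of peaks with identical ends.

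The Malat1 position used here equals that of RefSeq GRCm38.p6. As a check that mm9 has no shift here, 59 of 99 RefSeq starts within 1000 kb of the window fell in regions of all 8 libraries, against at most 12 at each of 20 shifts of up to 50 kb. Sequences are from RefSeq GRCm38.p6. A gene annotation of mm9 was not used here, so lists of paraspeckle and speckle genes and cell type markers were not analysed here. 1 of the 11 members enters the counts but its own values are not reported here. Values per library are given for those within 2000 bp of either gene, called by limma, or with a peak in 1 to 7 libraries, and the proximal spacer region was added after its values were seen. The likeness rule took the 3 highest Pearson correlations. Members, lists and tests were chosen with earlier results of these data known. Alternatives were other pseudocounts, filters, normalization, list lengths, score limits and merging, leaving out libraries 1 by 1, and a replicate block.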

Additional observations from a re-analysis of the deposited data

How the results depend on the processing

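The mean knockdown effect at the Neat1 start turned to -0.0162 after quantile normalization. The count of members called by limma moved as follows. For EGF in control siRNA cells (1) it was 0 with regions in at least 1 library or in all 8, with peaks above the pooled median score, with peaks within 2000 bp merged and with the replicate block, and 0 to 1 without 1 library. For EGF in knockdown cells (4) it was 1 with regions in all 8 libraries or lists of equal length, 2 after quantile normalization or merging, 0 above the median score and 0 to 5 without 1 library. For the mean EGF effect (5) it was 2 with regions in all 8 or lists of equal length, 1 after quantile normalization, 0 above the median score, 3 after merging and 1 to 5 without 1 library. For knockdown without EGF (4) it was 2 with a pseudocount of 1000 bp or merging, 0 with both other filters, quantile normalization, equal lists, the score limit or the replicate block, and 0 to 4 without 1 library. For knockdown with EGF (1) it was 0 with a pseudocount of 1000 bp, both filters, quantile normalization, equal lists, the score limit or the block, and 0 to 1 without 1 library. For the mean knockdown effect (1) it was 4 with a pseudocount of 50 bp, 0 with 1000 bp, both filters, equal lists, the score limit or the block, and 0 to 3 without 1 library. For the difference of EGF effects it was 0 to 1 without 1 library, where 1 came without the second control library. The fit held 5 members with regions in all 8 libraries or the score limit, 7 with equal lists, 6 after merging, which also joined members, and 8 without either knockdown library, where the downstream, Malat1 body and mid spacer regions left it. All members called for knockdown had entered the fit through Arid1a siRNA libraries alone. For the rest the cause was not tested. Over all regions the difference of EGF effects gave 0 calls, but 812 above the median score.

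Window length under peaks, EGF-treated minus vehicle, was -7075 bp, -5123 with equal lists, -4592 above the median score, -1996 in the 2 genes alone, and -8605 to -5546 without 1 library. Arid1a siRNA minus control siRNA was 6865 bp, then 5178, 2825, 3053, and 5300 to 8667. Both totals include the 5 regions that are members through Arid1a siRNA libraries alone, so their sizes are a description. Above the median score no list held those regions. As ratios of means the window gave 0.749 with EGF and 1.32 with Arid1a siRNA, against 0.796 and 1.10 over the genome. Members in both knockdown libraries and neither control library fell from 5 to 0 with equal lists and to 0 above the median score, and were 5 without any 1 library, where fewer libraries must hold or lack the peak. Above the median score 2 of the 4 EGF-treated libraries kept several peaks at the Malat1 start.

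Replicate differences were hardly correlated between groups (-0.009 to 0.032), which cannot show whether same-numbered libraries shared a batch. With the replicate block limma called 0 members for EGF given with control siRNA, 4 for EGF given with knockdown, 4 for EGF on average and 0 for each knockdown effect. Without a read depth, no limit of detection can be given.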
